A study of Mus musculus with 6 samples.

Results

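The genes that make cholesterol and fatty acids were examined in RNA-seq counts from immune cells of mouse hearts. The set holds 33 named genes, each found as 1 row among 57010 gene rows, and was taken by name, with no measured value in the rule. The set was, however, chosen with earlier results of these data known. It comprises 19 enzymes of the mevalonate and sterol pathway, 5 genes that control it through the SREBP transcription factors, the sterol carrier gene Stard4 and 8 enzymes of fatty acid synthesis and desaturation. The cells came from mice labelled Ova DTG, which express ovalbumin restricted to the heart, and all animals of both groups received naive OTI cells, CD8 T cells whose receptor recognises ovalbumin. One group of 3 libraries was from mice treated with immune checkpoint inhibitors (ICI), namely anti-CTLA-4 and anti-PD-1 antibodies at 200 µg each, and the other 3 libraries were from mice given isotype antibody, at a dose that the labels do not state. The sort took cells that carried CD45, found on all leukocytes, but lacked CD90.2 (Thy1), found on T cells, so each value is an average over a mixture of immune cell types. The labels number the libraries of a group as biological replicates 1 to 3 and give 1 batch date for all 6, and the titles of both groups, isotype included, carry the word myocarditis; the age of the animals and any pooling were not given.

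Cells build cholesterol from acetyl-CoA. The mevalonate arm ends in farnesyl pyrophosphate, which also feeds protein prenylation, dolichol and ubiquinone, and the sterol arm turns squalene into cholesterol. The transcription factors SREBP-1 and SREBP-2, made from Srebf1 and Srebf2, are carried from the endoplasmic reticulum by the escort protein SCAP when sterols are low, and held back by the INSIG proteins when sterols are high. SREBP-2 is best known for sterol enzymes and SREBP-1 for fatty acid enzymes, and in macrophages both pathways are reshaped during inflammatory activation.

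Total counts ran from 21528274 to 30736316 per library. Ptprc, which encodes CD45, was at 1126 to 1341 CPM (counts scaled to a common library total with the TMM factors of edgeR, here and below) in libraries labelled ICI and at 1028 to 1119 in those labelled isotype, while Thy1 had 0 to 2 counts per library. The 2 groups held different myeloid transcripts: summed over 10 resident macrophage markers the level was 8690 to 10074 CPM for ICI and 279.7 to 358 CPM for isotype, and over 8 monocyte markers it was 1280 to 1409 CPM for ICI and 4748 to 10318 CPM for isotype. Both replicates numbered 3 carried Xist (2786 and 1844 counts) and few Y-linked counts (6 and 130), while the other 4 libraries carried 3620 to 5821 Y-linked counts and 0 to 12 of Xist. The groups are named by their labels, which were not checked by any measure independent of expression; were the labels of the groups exchanged, every direction below would turn. In such bulk samples, fewer cells of a type and less RNA per cell cannot be told apart, and the part of cell composition in the differences below was not tested.

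The promoter stretches of 5 members are printed here because enzymes of shared control differed in opposite directions. Hmgcs1 (chr13:119690151-119690350, plus strand), HMG-CoA synthase and a textbook SREBP target, did not differ by the test; Sc5d (chr9:42264301-42264500, minus strand) was higher in ICI; Mvd (chr8:122443423-122443622, minus strand) and Ebp (chrX:8193513-8193712, minus strand) were lower; and Acly (chr11:100528001-100528200, minus strand), from the fatty acid branch, was lower. Each is the 200 bases before the RefSeq gene start in build GRCm38.p6, 5′ to 3′ on the gene's strand. Capitals mark the sterol regulatory element TCACNCCAC and the CCAAT box (ATTGG on the other strand), the site of NF-Y, which acts with SREBPs.
Hmgcs1: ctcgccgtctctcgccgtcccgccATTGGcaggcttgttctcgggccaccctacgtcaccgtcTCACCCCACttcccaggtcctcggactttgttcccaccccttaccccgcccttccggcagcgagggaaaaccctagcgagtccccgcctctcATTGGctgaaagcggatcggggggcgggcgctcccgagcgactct
Sc5d: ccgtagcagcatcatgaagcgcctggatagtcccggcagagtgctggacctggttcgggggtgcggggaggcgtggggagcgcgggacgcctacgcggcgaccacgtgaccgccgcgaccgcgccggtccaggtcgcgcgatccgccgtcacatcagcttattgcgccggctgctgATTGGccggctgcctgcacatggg
Mvd: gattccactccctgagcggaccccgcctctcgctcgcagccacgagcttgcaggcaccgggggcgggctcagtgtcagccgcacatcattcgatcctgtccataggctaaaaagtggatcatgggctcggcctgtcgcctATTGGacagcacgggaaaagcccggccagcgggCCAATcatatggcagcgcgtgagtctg
Ebp: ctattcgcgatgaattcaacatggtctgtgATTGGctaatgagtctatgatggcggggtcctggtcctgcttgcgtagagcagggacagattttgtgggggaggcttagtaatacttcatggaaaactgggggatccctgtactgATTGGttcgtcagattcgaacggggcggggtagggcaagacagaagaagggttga
Acly: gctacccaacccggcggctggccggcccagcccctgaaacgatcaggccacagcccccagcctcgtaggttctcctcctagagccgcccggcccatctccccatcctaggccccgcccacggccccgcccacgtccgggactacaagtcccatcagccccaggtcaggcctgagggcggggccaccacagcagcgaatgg

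Hmgcs1 held 1 sterol regulatory element, 137 bases upstream of its start, and 2 CCAAT boxes, 176 and 45 bases upstream. Sc5d had 1 CCAAT box and Mvd and Ebp had 2 each, whichever way they moved, while the Acly stretch had 0. RefSeq windows from 250 bases before to 50 bases after the start were matched for 26 of the 33 members and searched for both motifs on both strands. CCAAT lay in the windows of 15 of the 16 matched sterol enzymes, all but Acat2. That covers 3 of 3 enzymes that were higher in ICI, 6 of 6 that were lower and 6 of 7 that were not called. Of the matched fatty acid enzymes 2 of 5 held it, Acly among them within the wider window, against 41.1% of 27025 genes (37.4% of 32851 windows of that length). The sterol regulatory element lay in 1 of the 26 members, Hmgcs1, against 1.44% of all genes. A motif match is a description of letters and not a binding site, and no match says only that these letters are not in this window.

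Sterol enzymes did not move together between the groups. Of the 19 enzymes, 3 were higher in ICI (Idi1, Cyp51 and Sc5d), 7 were lower (Mvk, Pmvk, Mvd, Fdps, Tm7sf2, Nsdhl and Ebp) and 9 were not called. Calls here and below are at an adjusted p under 0.05 in the edgeR quasi-likelihood test, after Benjamini-Hochberg adjustment over 14575 genes. Most of the transcriptome was called in this comparison: 68.9% of the tested genes, 35.0% higher and 33.9% lower, so calls of 10 of 19 enzymes and of 20 of 33 members (9 higher, 11 lower) lie near or below the background. Scaling changed the split: with upper-quartile factors, and likewise with library totals alone, 10 sterol enzymes were higher and 5 lower. The median log2 fold change of the 19 enzymes was 0.03, as was that of all tested genes, and these scalings moved the latter to 0.21 and 0.23. The fitted difference passed 2-fold for 1 of the 19 enzymes (5.26%), against 34.5% of all tested genes, and against a change of 1.5-fold 2 of the 19, Pmvk and Mvd, and 7 of the 33 members passed (2 higher and 5 lower), where 37.9% of all tested genes did. The median size of change without regard to sign was 0.48 on the log2 scale for these enzymes and 0.66 for all tested genes. Values of the 3 ICI libraries did not overlap those of the 3 isotype libraries for 12 of the 19 enzymes and for 22 of the 33 members, against 73.8% of all tested genes.

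**Figure D1:**
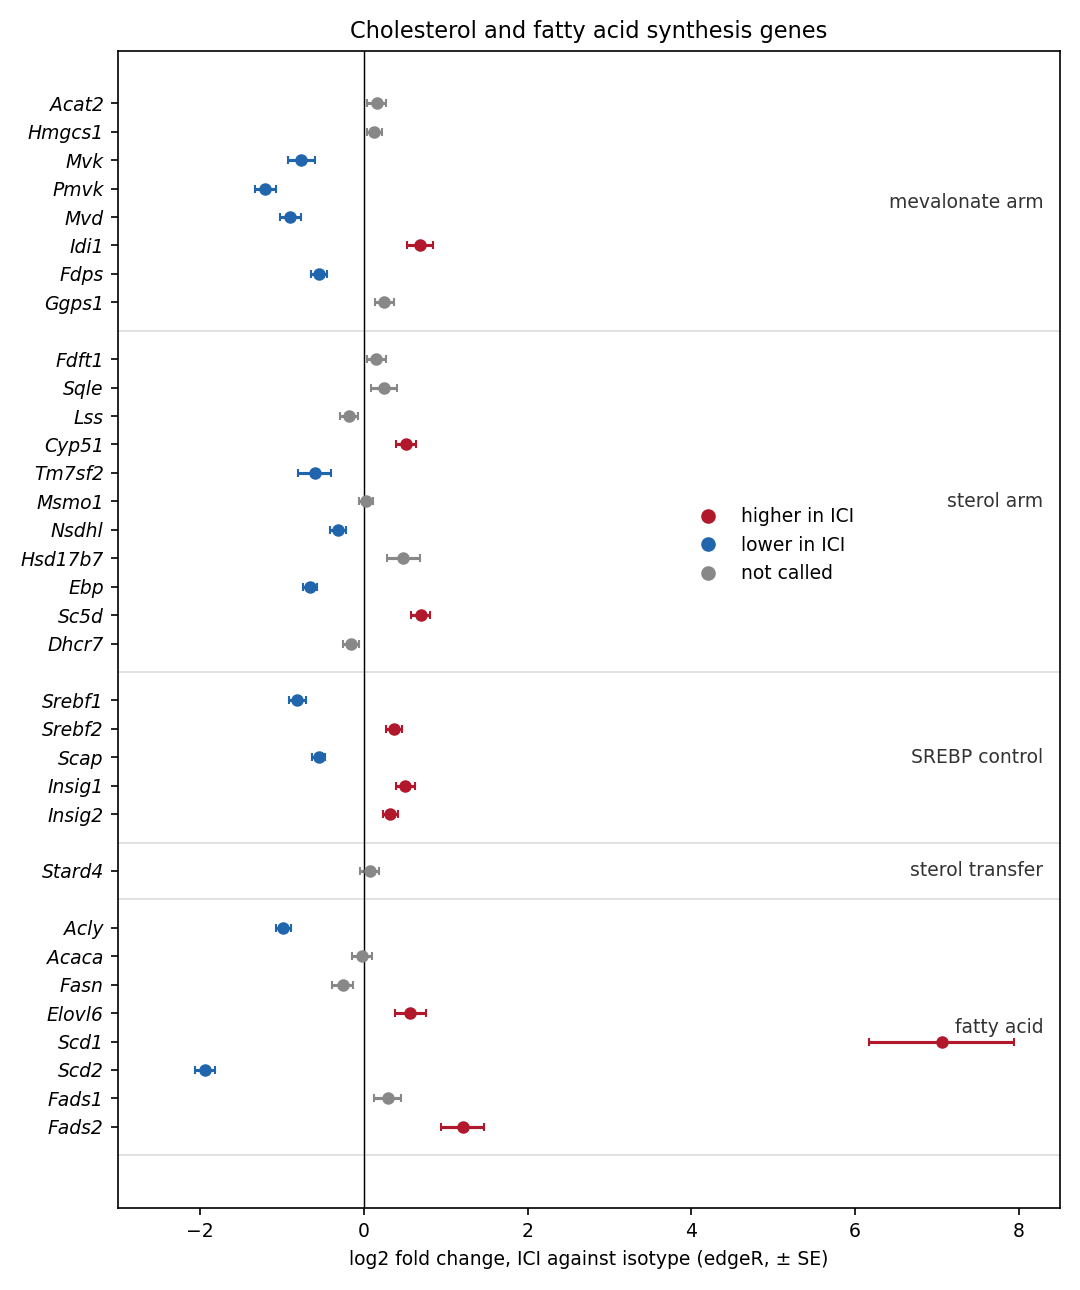
Log2 fold change of each of the 33 members, ICI against isotype (x axis), with bars of 1 standard error from the edgeR fit, in order of pathway role; colour gives the call at an adjusted p under 0.05. Sterol enzymes lie on both sides of 0 within -1.20 and 0.69, while Scd1 at 7.06 and Scd2 at -1.94 stand at the ends.

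The mevalonate arm was split along its length. Its first enzymes were not called: Acat2, the cytosolic acetoacetyl-CoA thiolase, had a log2 fold change of 0.16, and Hmgcs1 one of 0.13, at 43.3, 49.5 and 46.6 CPM in ICI replicates 1, 2 and 3 and 39.4, 45.0 and 43.3 CPM in isotype replicates 1, 2 and 3. The 3 kinase and decarboxylase steps further along the arm were lower.

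Pmvk (ENSMUSG00000027952), phosphomevalonate kinase, had the largest fall of the sterol enzymes. Its level was 11.4, 9.10 and 8.71 CPM in ICI and 23.4, 23.0 and 20.8 CPM in isotype. All 3 ICI libraries lay below all 3 isotype libraries, and the fitted difference was 2.30-fold (log2 fold change -1.20, SE 0.13, edgeR adjusted p = 2.45e-05). Mvd, mevalonate diphosphate decarboxylase, was at 7.81, 8.74 and 7.15 CPM in ICI and at 14.7, 14.8 and 14.7 CPM in isotype, where the 3 libraries barely differed. It fell by 0.90 on the log2 scale (SE 0.12, edgeR adjusted p = 0.000123). Mvk, mevalonate kinase, was at 5.60, 4.25 and 4.46 CPM in ICI against 8.40, 8.73 and 7.25 CPM in isotype, again without overlap (log2 fold change -0.77, edgeR adjusted p = 0.0022).

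Idi1, which isomerises the isoprenoid unit and comes directly after Mvd, went the other way. It was at 35.3, 48.7 and 43.5 CPM in ICI and 24.1, 32.1 and 23.1 CPM in isotype. The ranges were apart, though replicate 2 was the highest in both groups (log2 fold change 0.69, SE 0.16, edgeR adjusted p = 0.00355). Fdps, farnesyl pyrophosphate synthase, was lower again, at 27.5, 28.8 and 25.9 CPM against 38.4, 43.8 and 38.1 CPM (log2 fold change -0.55, edgeR adjusted p = 0.000575). Exons of Fdps share 1124 bases with Gm43738 on the same strand in GENCODE M21, a gene for which no counts were given. Ggps1, which makes the longer geranylgeranyl unit, was not called, with overlapping groups (log2 fold change 0.25, edgeR adjusted p = 0.0832). Over the 8 genes of this arm 1 was higher, 4 lower and 3 not called, against 35.0% higher and 33.9% lower of all tested genes, and their median was -0.21 on the log2 scale. With upper-quartile factors Acat2, Hmgcs1 and Ggps1 were called higher too (edgeR adjusted p = 0.0274, 0.0133 and 0.00789), which made 4 higher and 4 lower, and the median came to -0.03. Library totals gave the same counts.

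In the sterol arm, the steps up to the first sterol did not differ by the test. Fdft1, squalene synthase, was at 16.7 to 20.5 CPM in ICI and 15.8 to 17.7 CPM in isotype, and Sqle, squalene epoxidase, at 15.9 to 18.0 and 12.2 to 18.1 CPM. Lss, lanosterol synthase, had a log2 fold change of -0.18 (edgeR adjusted p = 0.174) without overlap of the groups. Its direction turned with upper-quartile factors (0.01) and library totals (0.03). Per the GENCODE M21 annotation, exons of Fdft1 share 774 bases with those of Ctsb on the opposite strand, a gene with 853440 counts over the 6 libraries. The libraries carry no strand, so reads there cannot be told apart. The same holds for 166 bases of Cyp51 and Akap9 (log2 fold change -0.17, not called), 257 bases of Ggps1 and Arid4b (0.60, higher) and 985 bases of Scap and 5830462I19Rik, which had 67 counts in all.

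Cyp51 and Sc5d were the 2 sterol arm enzymes that rose. Cyp51, the demethylase that acts on lanosterol, was at 47.2, 58.4 and 55.3 CPM in ICI and at 33.3, 43.2 and 36.1 CPM in isotype. The lowest ICI library stood above the highest isotype library (log2 fold change 0.52, SE 0.12, edgeR adjusted p = 0.00333). Sc5d, the sterol desaturase of a late step, was at 30.9, 37.5 and 35.0 CPM in ICI and 21.2, 23.8 and 19.1 CPM in isotype. Again every ICI library was above every isotype library, and the groups differed by 1.62-fold (log2 fold change 0.69, SE 0.12, edgeR adjusted p = 0.000428).

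Ebp, Nsdhl and Tm7sf2 were lower. Ebp, the sterol isomerase that works just before Sc5d, was at 49.9, 49.7 and 44.9 CPM in ICI and 78.6, 77.1 and 72.5 CPM in isotype, a fall of every ICI library below every isotype library (log2 fold change -0.66, SE 0.08, edgeR adjusted p = 6.85e-05). So 2 enzymes of neighbouring steps, Ebp and Sc5d, differed in opposite directions. Nsdhl, a dehydrogenase of the demethylation complex, was at 13.8, 14.2 and 13.9 CPM against 17.3, 17.0 and 17.9 CPM (log2 fold change -0.31, edgeR adjusted p = 0.0185), a call that 7 of 17 alternative settings did not keep, among them the fit without ICI replicate 3 (adjusted p = 0.0544). Tm7sf2, a sterol reductase with 61 to 153 counts per library, was at 3.55, 2.98 and 2.57 CPM against 4.59, 3.92 and 5.23 CPM (log2 fold change -0.60, edgeR adjusted p = 0.0215). Leaving out ICI replicate 2, ICI replicate 3, isotype replicate 1 or isotype replicate 3 ended its call (edgeR adjusted p = 0.0523, 0.0766, 0.0514 and 0.0677). It shares 532 exonic bases with Vps51 on the same strand, which also fell (log2 fold change -0.54).

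Msmo1, Hsd17b7 and Dhcr7 completed the arm without a call. Msmo1, the methylsterol oxidase, was nearly level at 33.5, 35.0 and 34.9 CPM in ICI and 32.0, 35.3 and 33.9 CPM in isotype. Hsd17b7, a sterol reductase, was at 6.01, 6.67 and 6.61 CPM and 4.33, 6.04 and 3.59 CPM, where isotype replicate 2 overlapped the ICI libraries (log2 fold change 0.48, edgeR adjusted p = 0.0546). Without that library Hsd17b7 was called higher (edgeR adjusted p = 0.00938). With all libraries it was also called with upper-quartile factors, library totals, limma-voom or the strict filter. Dhcr7, which makes cholesterol from its last precursor in one branch, was at 30.0 to 36.2 CPM in ICI and 36.0 to 37.8 CPM in isotype (log2 fold change -0.16, edgeR adjusted p = 0.162).

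Summed over the 19 sterol enzymes, the levels of the groups overlapped. The sums were 441, 490 and 452 CPM in ICI and 461, 502 and 455 CPM in isotype (log2 ratio of the means -0.04). On library totals the log2 ratio was 0.17, without isotype replicate 2 it was 0.01, and with each gene divided by its exon length it was -0.17.

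**Figure D2:**
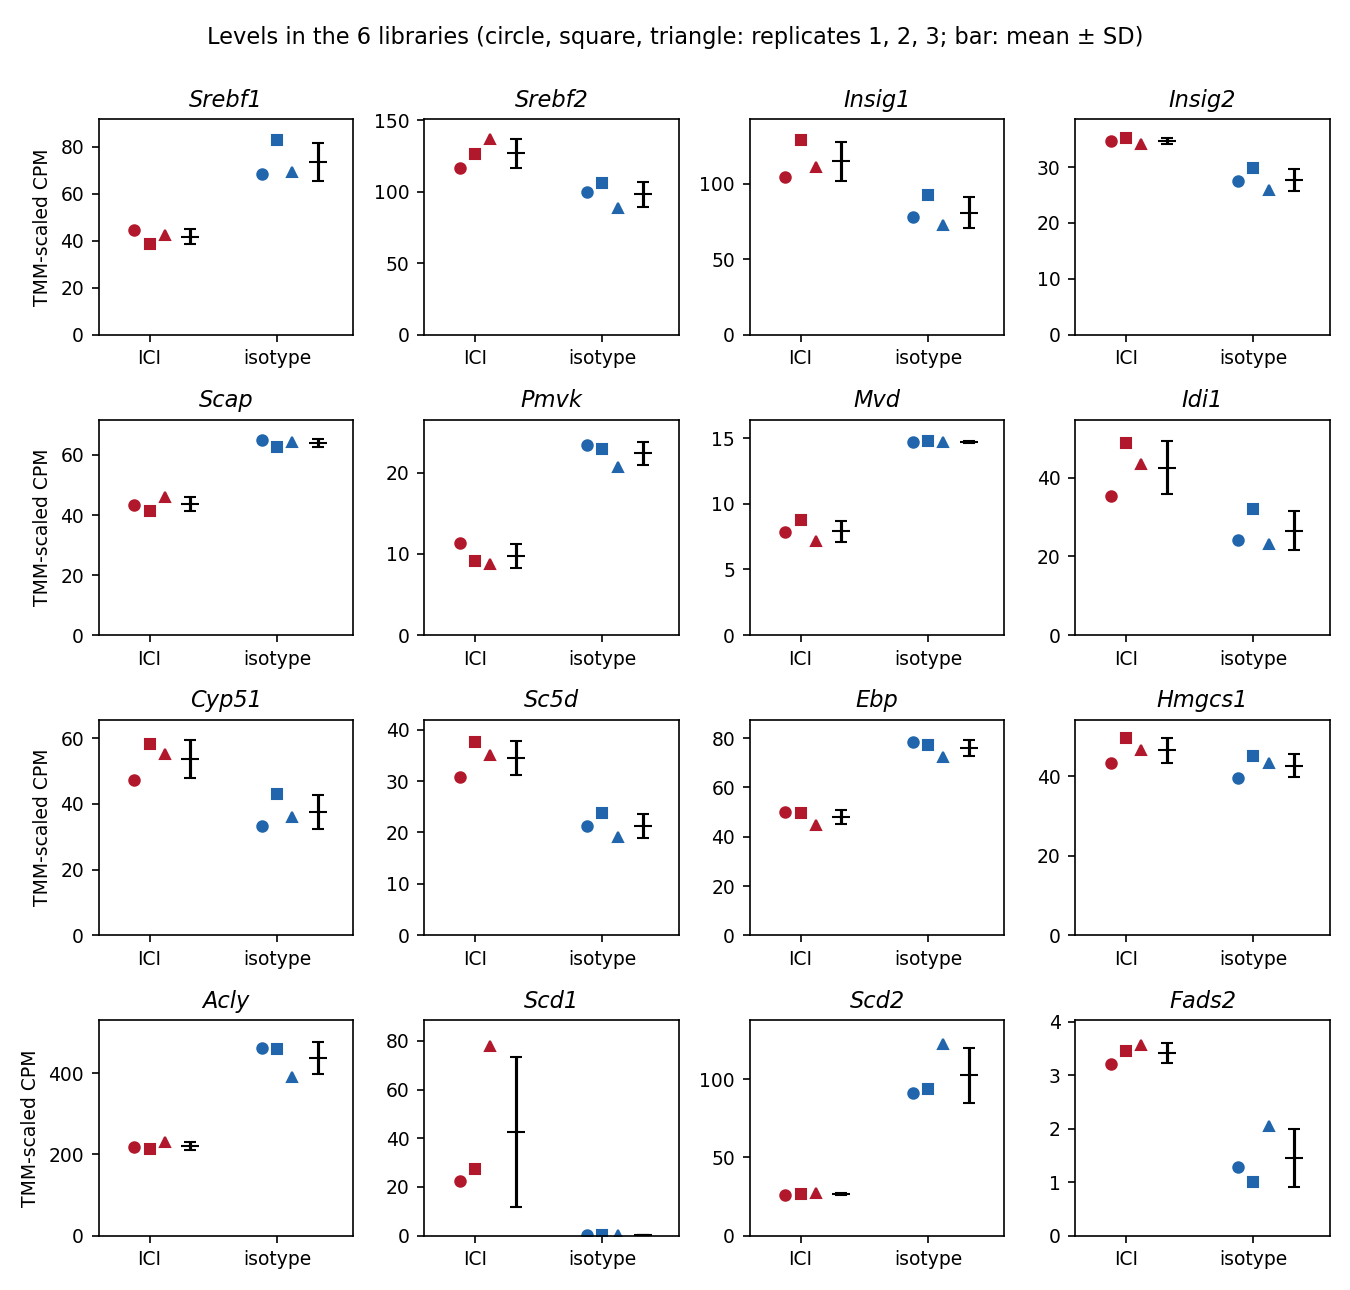
TMM-scaled CPM (y axes, from 0) of 16 members in each ICI (red) and isotype (blue) library, with circle, square and triangle for replicates 1, 2 and 3 and a bar for the mean ± SD. Hmgcs1 overlaps between the groups, while Pmvk, Mvd, Ebp, Acly and Scd2 are lower and Idi1, Cyp51, Sc5d, Scd1 and Fads2 higher in all 3 ICI libraries.

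Of the 5 SREBP control genes 3 were higher and 2 lower, where 68.9% of all tested genes were called; against a change of 1.5-fold 0 were higher and 1 lower. Srebf1 fell: it was at 44.5, 38.5 and 42.4 CPM in ICI and 68.6, 82.7 and 69.1 CPM in isotype. The groups did not overlap and differed by 1.76-fold (log2 fold change -0.81, SE 0.10, edgeR adjusted p = 6.51e-05). Its exons share 109 bases with Rai1 on the opposite strand, which was higher (log2 fold change 0.41). Srebf2 was at 116.5, 126.8 and 137.2 CPM in ICI and 99.9, 105.9 and 89.0 CPM in isotype (log2 fold change 0.37, SE 0.10, edgeR adjusted p = 0.00641). The rise of Srebf2 was not called with replicates 1 and 2 of each group alone (edgeR adjusted p = 0.0724) or with a trend on exon length removed (edgeR adjusted p = 0.0657). Gene counts do not separate the Srebf1 isoforms.

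Within a library, the ratio of Srebf1 to Srebf2 does not depend on the scaling between libraries. It was 0.382, 0.303 and 0.309 in ICI and 0.686, 0.780 and 0.776 in isotype. Every ICI library had a lower ratio than every isotype library (p = 0.1 in an exact two-sided permutation test, which cannot go lower with 3 against 3; 0.133 after Benjamini-Hochberg adjustment over the 4 ratios tested).

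Scap, the escort, was lower and the retention genes Insig1 and Insig2 were higher. Scap was at 43.5, 41.2 and 46.1 CPM in ICI and 65.0, 62.6 and 64.4 CPM in isotype (log2 fold change -0.55, SE 0.08, edgeR adjusted p = 0.000191). Insig1, itself a textbook SREBP target, was at 104, 129 and 111 CPM in ICI and 77.8, 92.4 and 72.4 CPM in isotype (log2 fold change 0.51, SE 0.11, edgeR adjusted p = 0.00288). Insig2, the form not known as an SREBP target, was at 34.7, 35.2 and 34.1 CPM and 27.6, 29.8 and 25.9 CPM (log2 fold change 0.32, edgeR adjusted p = 0.00949). The ICI libraries were above the isotype libraries for both genes. The Insig2 call was lost with replicates 1 and 2 alone (adjusted p = 0.0583). The ratio of Insig1 to Insig2 overlapped, at 3, 3.66 and 3.26 in ICI and 2.82, 3.10 and 2.80 in isotype (exact two-sided permutation p = 0.2). Stard4, a soluble sterol carrier and textbook SREBP-2 target, was not called, at 14.7, 15.5 and 15.9 CPM in ICI and 15.6, 15.4 and 13.03 CPM in isotype (log2 fold change 0.07).

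Fatty acid genes included the largest differences of the set. Of the 8, Scd1, Fads2 and Elovl6 were higher in ICI, Acly and Scd2 were lower, and Acaca, Fasn and Fads1 were not called. A fitted difference over 2-fold was seen for 3 of them (37.5%, against 34.5% of all tested genes). Their median log2 fold change was 0.13, and it was -0.06 with the length trend removed.

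Acly (ENSMUSG00000020917), ATP citrate lyase, makes the cytosolic acetyl-CoA that both pathways use. It was at 218, 213 and 232 CPM in ICI and 463, 459 and 392 CPM in isotype. The lowest isotype library exceeded the highest ICI library by a wide margin, and the fitted difference was 1.98-fold (log2 fold change -0.99, SE 0.09, edgeR adjusted p = 9.35e-06). Acaca, acetyl-CoA carboxylase, was at 18.0, 19.1 and 18.8 CPM in ICI and 16.3, 21.6 and 18.8 CPM in isotype, with full overlap (log2 fold change -0.02). Fasn, fatty acid synthase, was at 47.7, 53.5 and 55.9 CPM and 59.7, 75.6 and 53.1 CPM (log2 fold change -0.26, edgeR adjusted p = 0.0989). Without isotype replicate 3 Fasn was called lower (log2 fold change -0.39, edgeR adjusted p = 0.019). With the length trend removed, both Acaca (-0.41) and Fasn (-0.53) were called lower, at edgeR adjusted p = 0.0122 and 0.00484.

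The stearoyl-CoA desaturases Scd1 and Scd2, which introduce the first double bond into saturated fatty acids, differed in opposite directions. Scd1 (ENSMUSG00000037071) had 536, 691 and 1854 counts in ICI and 12, 4 and 9 counts in isotype, or 22.4, 27.5 and 78.0 CPM against 0.440, 0.176 and 0.308 CPM. All ICI libraries were far above the isotype libraries, and ICI replicate 3 was well above the other 2. The fitted difference was 133-fold (7.06 ± 0.88 SE on the log2 scale, edgeR adjusted p = 0.00134) and 78.5-fold without ICI replicate 3. Scd2 (ENSMUSG00000025203) was at 25.9, 26.8 and 27.2 CPM in ICI and 91.1, 93.4 and 122.6 CPM in isotype. The 3 ICI libraries were nearly equal and all below the isotype libraries, and the groups differed by 3.84-fold (log2 fold change -1.94, SE 0.12, edgeR adjusted p = 7.62e-07). The ratio of Scd1 to Scd2 within a library was 0.863, 1.03 and 2.87 in ICI and 0.00483, 0.00189 and 0.00251 in isotype (exact two-sided permutation p = 0.1, adjusted over the 4 ratios 0.133).

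The groups also differed in markers of other cell types. Sums for general macrophage, NK cell, T cell, fibroblast, endothelial, Schwann, cardiomyocyte and erythroid markers were higher in every ICI library. Monocyte and proliferation sums were lower. Neutrophil sums overlapped, though 5 of the 8 neutrophil markers were called higher in ICI and 0 lower. Some transcripts of cells outside the sorted type were thus present. Cardiomyocyte markers summed to 33.5 to 43.7 CPM in ICI and 5.51 to 13.3 CPM in isotype. Fibroblast markers summed to 63.5 to 195 CPM and 11.9 to 15.8 CPM. Adipocytes, which are not leukocytes, are a tissue source of Scd1. Their 10 markers summed to 1.21, 1.95 and 1.73 CPM in ICI, highest in replicate 2, and 0.220 to 0.308 CPM in isotype. Aqp7, the 1 marker of these that was tested, was called higher in ICI, and Adipoq, Plin1, Cidec and Lep had 0 counts in all 6 libraries. All 8 B cell markers were called higher in ICI. They summed to 945, 1003 and 1727 CPM in ICI and 73.5, 62.7 and 108 CPM in isotype. ICI replicate 3 was the highest of its group, as for Scd1, and likewise for dendritic, mast, NK, T cell and Schwann markers. That library also differed from ICI replicates 1 and 2 in Xist (2786 counts, against 0 and 12) and in Y-linked counts (6, against 4879 and 5821). The 8 dendritic cell markers summed to 371, 314 and 457 CPM and 71.4, 60.9 and 109 CPM. Of these 6 were called higher, Clec9a was lower and Itgae was not called. Cd209a and Ccr7 made up most of the ICI sum. The 8 mast cell markers summed to 137, 151 and 198 CPM and 93.0, 94.6 and 84.8 CPM. Of these 6 were higher, Kit was not called and Ms4a2 was not tested. Most of that sum was Hdc, at 106, 108 and 118 CPM in ICI and 78.5, 80.5 and 57.5 CPM in isotype. The part of any of these cell types, of resident macrophages or of sex in the Scd1 values was not tested.

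The fatty acid desaturases of the Fads pair act on polyunsaturated fatty acids. Fads2 had 77, 87 and 85 counts in ICI and 35, 23 and 60 counts in isotype, or 3.22, 3.46 and 3.58 CPM against 1.28, 1.01 and 2.05 CPM. The groups did not overlap and differed by 2.31-fold (log2 fold change 1.21, SE 0.26, edgeR adjusted p = 0.0023). Fads1 was at 89.8, 86.6 and 81.6 CPM in ICI and 57.8, 61.2 and 92.0 CPM in isotype, where replicate 3 lay above all ICI libraries and the other 2 below. It was not called (log2 fold change 0.29, edgeR adjusted p = 0.159), but without isotype replicate 3 it was (log2 fold change 0.51, edgeR adjusted p = 0.00105). The ratio of Fads1 to Fads2 was 27.9, 25.0 and 22.8 in ICI and 45.0, 60.3 and 44.8 in isotype (exact two-sided permutation p = 0.1, adjusted 0.133). Elovl6, which lengthens palmitate, had 100 to 119 counts in ICI and 82 in each isotype library, at 4.18, 4.73 and 5.01 CPM against 3.01, 3.61 and 2.80 CPM (log2 fold change 0.57, edgeR adjusted p = 0.0187). The Elovl6 call was lost without ICI replicate 3, isotype replicate 1 or isotype replicate 3 (edgeR adjusted p = 0.0529, 0.0716 and 0.0708).

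Summed over the 8 fatty acid enzymes, the level was 429, 435 and 502 CPM in ICI and 693, 715 and 683 CPM in isotype (log2 ratio -0.61). Without Acly the sums were 211, 222 and 270 CPM and 230, 257 and 292 CPM, which overlapped.

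Levels were also ranked between genes per kilobase of exon, with all annotated exons of a gene merged. The merged length can exceed that of the transcripts expressed, so these ranks are approximate. Acly had the highest level of the 33 in both groups, at 41.9 CPM per kb in ICI and 82.9 in isotype. Ebp ranked 2 in isotype (32.9 CPM per kb) and 3 in ICI (20.8), and Insig1 ranked 3 in isotype (26.1) and 2 in ICI (37.1). Scd2 ranked 4 of 33 in isotype (18.7 CPM per kb) and 21 in ICI (4.88), while Scd1 ranked last in isotype (0.0630) and 10 in ICI (8.71). Without ICI replicate 3, the library with most Scd1, its ICI level was 5.09 CPM per kb at rank 19. Pmvk moved from rank 7 (13.1) in isotype to rank 18 (5.68) in ICI. Srebf2 was above Srebf1 in both groups, in isotype by less than the spread between its libraries (13.68 against 13.04 CPM per kb) and in ICI by more (17.7 against 7.42).

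Within groups, many sterol enzymes peaked in the same library, a pattern noticed after the values were seen. ICI replicate 2 had the highest level of its group for 13 of the 19 enzymes and isotype replicate 2 likewise for 13 of 19, while these libraries held the group's highest level for 34.6% and 33.3% of all tested genes. ICI replicate 3 was highest for 0 of the 19 (31.6% of all tested genes) but for 6 of the 8 fatty acid enzymes. That library also carried the most Xist of its group, and the part of sex was not tested. Idi1, Sqle, Cyp51, Sc5d and Hsd17b7 were among those highest in replicate 2 of both groups. Sterol enzymes share their libraries, so these counts have no test. The 8 proliferation markers summed to 244, 335 and 246 CPM in ICI and 602, 543 and 602 CPM in isotype, so replicate 2 was the highest in ICI and the lowest in isotype.

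**Figure D3:**
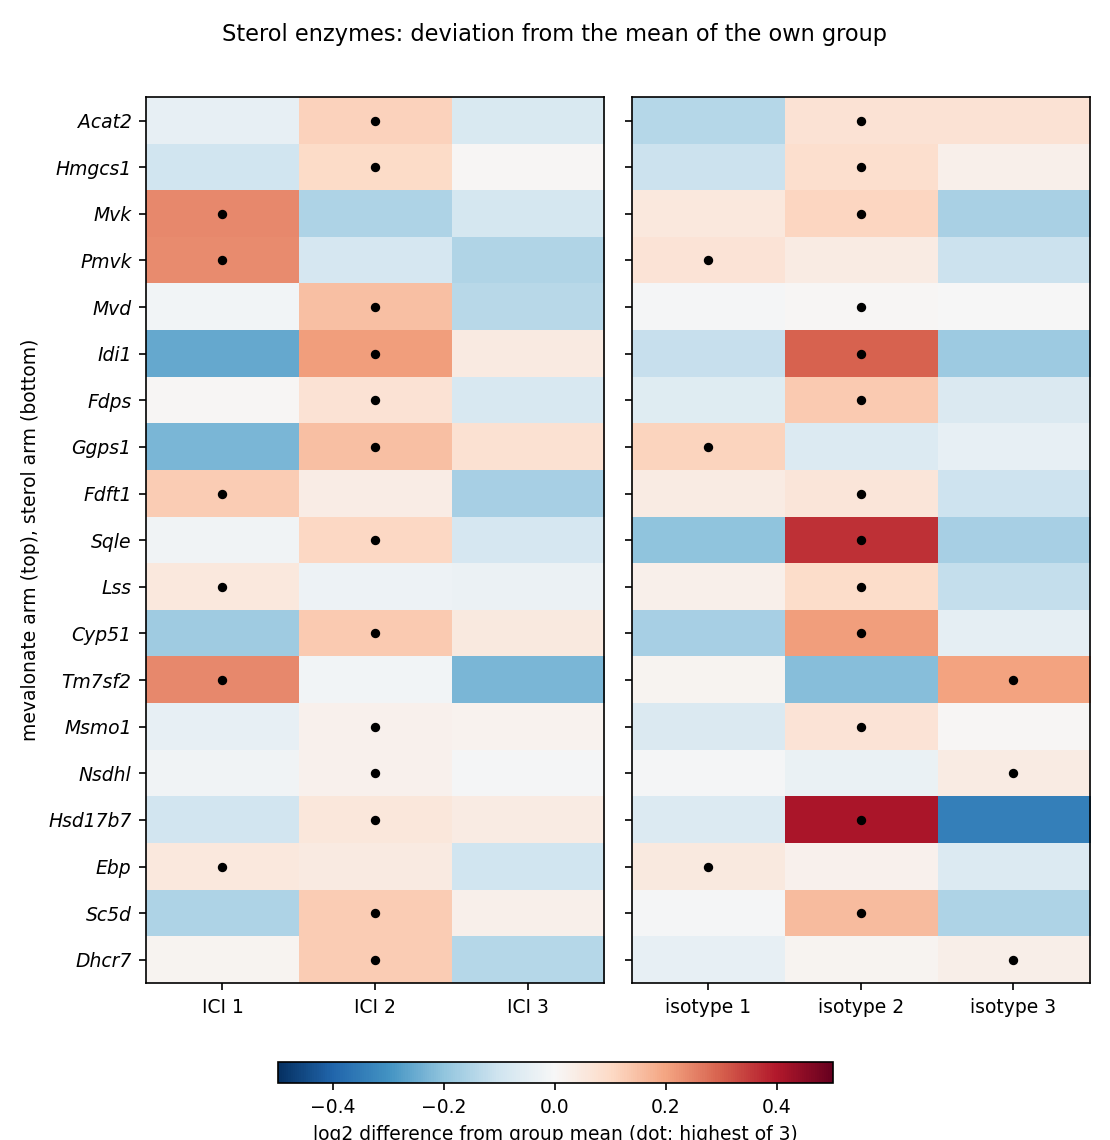
Log2 difference of each sterol enzyme's level in a library from the mean of its own group (colour scale), for 3 ICI and 3 isotype libraries; a dot marks the highest of the 3 libraries. Dots gather in replicate 2 of both groups, at 13 of 19 enzymes each.

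Genes around the pathway were read from 6 lists with 77 tested genes, of which 26 were higher, 33 lower and 18 not called; 59 of 77 were thus called, where 68.9% of all tested genes were (35.0% higher and 33.9% lower), and the counts of each list below stand beside these shares. Genes outside the naming rule are named after their values were seen, namely Rnf139, Paqr3, Stard5, Stard3, Gramd1c, Cyp27a1, Apoe, Nr1h2, Fnta, Rabggta, Dhdds, Pdss1, Acacb, Acsl4 and Oxsm. Of 5 further sterol enzymes tested, 3 were higher, 1 was lower and 1 was not called, and 0 passed against 1.5-fold. The higher ones were Lbr, which carries a sterol reductase domain (log2 fold change 0.47), Sdr42e1 (0.77) and Acat1, the mitochondrial thiolase (0.28).

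Of 14 genes for the processing and degradation of SREBPs, INSIG and sterol enzymes, 3 were higher, 3 lower and 8 not called, and 0 passed against 1.5-fold. Rnf145 (log2 fold change 0.70), a ubiquitin ligase that acts on SCAP, Pgrmc1 (0.46) and Marchf6 (0.29), a ligase that degrades squalene epoxidase, rose. Faf2 (-0.43), Rnf139 (-0.22, edgeR adjusted p = 0.0366) and Paqr3 (-0.62, edgeR adjusted p = 0.0394) fell. The 3 lower became 1 with DESeq2, with the strict filter and with replicates 1 and 2 alone. Leaving out ICI replicate 3, isotype replicate 1 or isotype replicate 2 likewise left 1. Faf2 kept its call in each of these settings, so the calls of Rnf139 and Paqr3 were lost there. With the length trend removed 5 were lower. With upper-quartile factors the count was 5 higher and 1 lower, and the Marchf6 call was lost when either of ICI replicates 1 and 2 or isotype replicates 1 and 2 was left out.

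Of 12 uptake and transport genes 3 were higher, 7 lower (33.9% of all tested genes were lower) and 2 (Stard3 and Gramd1c) not called. Their median was -0.42 on the log2 scale. Against 1.5-fold 2 were higher and 2 lower. Mylip, a ubiquitin ligase known as a target of the liver X receptors (LXR), was at 83.2, 76.5 and 80.8 CPM in ICI and 22.0, 23.0 and 27.4 CPM in isotype, a clear separation (log2 fold change 1.73, edgeR adjusted p = 5.35e-07). Npc2 (-0.84), which moves cholesterol out of lysosomes, and Tmem97 (-0.77) fell. Gramd1a (0.91), a sterol transporter at membrane contacts, and Stard5 (0.22, edgeR adjusted p = 0.0449) rose. Mylip and Gramd1a kept their calls under all 17 alternatives. The 3 higher became 2 with DESeq2, and without any 1 ICI replicate, isotype replicate 1 or isotype replicate 2, so the Stard5 call was lost there.

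Among 9 genes of oxysterol handling and LXR, the sterol sensors that drive cholesterol export, 3 were higher, 6 were lower and 0 were not called, where 68.9% of all tested genes were called. Against 1.5-fold 3 were higher and 4 lower. LXR alpha, Nr1h3, was at 6.77, 6.12 and 6.14 CPM in ICI and 38.0, 40.1 and 34.4 CPM in isotype, the largest fall of this list (log2 fold change -2.56, edgeR adjusted p = 8.92e-08). Nr1h2 (-0.67), Soat1 (-1.43), which esterifies cholesterol, Abcg1 (-1.38), an exporter, Lpcat3 (-1.06) and Ch25h (-1.30) also fell. Ch25h, which makes an oxysterol that blocks SREBP processing, was at 40.1, 52.6 and 21.2 CPM and 79.9, 124 and 77.0 CPM, and its call (edgeR adjusted p = 0.0305) was lost without ICI replicate 1, isotype replicate 2 or isotype replicate 3. Abca1, the other main exporter, rose, at 483, 274 and 384 CPM in ICI and 133, 119 and 190 CPM in isotype (log2 fold change 1.37, edgeR adjusted p = 0.00361), as did Cyp27a1 (2.04) and Apoe (2.63). Abca1 and Abcg1, both textbook LXR targets, thus differed in opposite directions.

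Of 12 genes that use isoprenoids, 3 were higher (Pggt1b, Fnta and Rabggta, subunits of prenyltransferases), 5 lower (Nus1 and Dhdds of dolichol synthesis, Coq2 and Pdss1 of ubiquinone synthesis, and Rabggtb) and 4 not called. Nus1 had a log2 fold change of -0.87, Rabggtb of -0.81, Coq2 of -0.72 and Pggt1b of 0.62. The list's median was -0.24, and -0.06 with upper-quartile factors. Against 1.5-fold 0 were higher and 3 lower. Of 25 further fatty acid genes 11 were higher, 11 lower and 3 (Acacb, Acsl4 and Oxsm) not called; against 1.5-fold 8 were higher and 4 lower. Lpin1, a phosphatidate phosphatase, was at 58.6, 43.2 and 59.2 CPM in ICI and 7.78, 8.20 and 10.9 CPM in isotype (log2 fold change 2.58, edgeR adjusted p = 2e-06). The acyl-CoA synthetases Acsl3 (2.39) and Acsl1 (-1.35), moved in opposite directions, and Fads3, the third member of the Fads family, was higher (2.49).

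**Figure D4:**
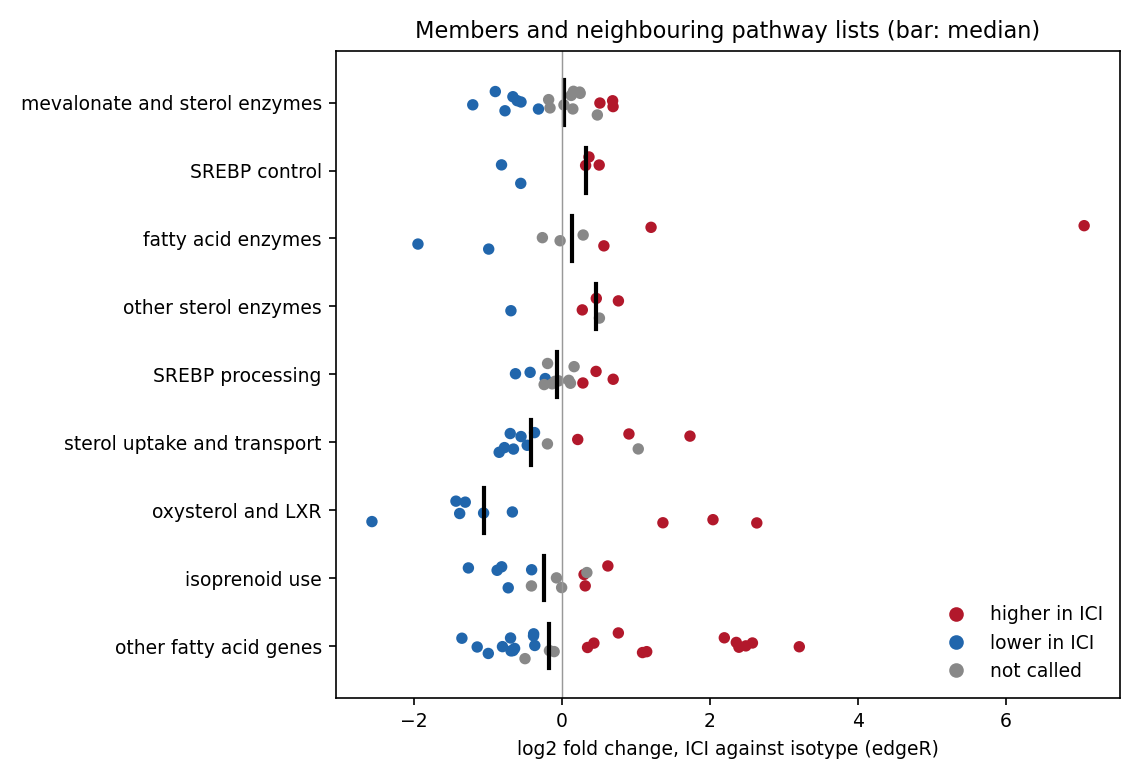
Log2 fold change, ICI against isotype (x axis), of the tested genes of 3 member groups and 6 pathway lists, coloured by the call, with a bar at each list's median; vertical scatter within a list has no meaning. Sterol enzymes centre at 0.03 and the oxysterol and LXR list at -1.06, with 3 of its 9 genes above 0.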

How the data were processed

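RNA was measured in 6 libraries, 3 per group. Per the labels' protocols, SMART-seq V4 was used to make non-directional paired-end libraries from total RNA. The authors deposited a table of raw counts per Ensembl gene, used as whole numbers; per the submitters' processing notes, STAR 2.7.10a, Salmon 1.10.1 and build GRCm39 were named, while their roles and the annotation were not given. Symbols were matched for 52029 of 57010 identifiers (91.3%) and for 249 of 251 list names.

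Counts were fitted with edgeR 4.0.16 in R 4.3.3 (TMM factors, filterByExpr with a minimum count of 10, robust quasi-likelihood F test, group as the only term). P-values were adjusted by Benjamini-Hochberg over 14575 genes. SE came from the fold change and F statistic. CPM values are counts over tested library sizes times TMM factors. Ratios within libraries were compared with exact permutation tests. Replicates differed by more than sampling noise (chi-square per degree of freedom 13.3 to 36.4). Whether animals were pooled is not given, so p-values measure the spread between these samples.

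Members, lists and naming rule (up to 4 called genes per list by p, plus Abca1, Ch25h, Soat1 and 3 genes that are counted in their lists but not reported here) were chosen with earlier results of these data known. Alternatives were RLE and upper-quartile factors, library totals, DESeq2 1.42.0, limma-voom (limma 3.58.1), no filter, a filter of 50 counts in 3 libraries, a test against 1.5-fold, a replicate block and each replicate left out. Removal of a length trend (lowess span 0.3) and a fit of replicates 1 and 2 alone were chosen after seeing the data. Gene lengths (all annotated exons of a gene merged) and exon overlaps are from GENCODE M21 and promoters from RefSeq. Both are on an older build than the counts.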

Additional observations from a re-analysis of the deposited data

How the results depend on the processing

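All 33 members were tested. The 7 members with the same direction and call under all 17 alternatives were Pmvk, Mvd, Srebf1, Acly, Scd1, Scd2 and Fads2. RLE factors, DESeq2 and the replicate block changed no call of the 33 members or of the pathway genes chosen by the naming rule. Outside that rule, the calls of Stard5, Rnf139 and Paqr3 were lost with DESeq2. Over all tested genes, a test against 1.5-fold left 3110 higher and 2410 lower. For the sterol enzymes the main count of 3 higher became 10 with upper-quartile factors, 10 with library totals, 5 with the strict filter and 0 against 1.5-fold, and 3 to 5 with 1 replicate left out (5 without isotype replicate 2); the 7 lower became 2 against 1.5-fold. For the SREBP control genes 3 higher became 0 against 1.5-fold and 1 with replicates 1 and 2 alone, and 2 lower became 1 against 1.5-fold. For the fatty acid enzymes 2 lower became 4 with the length trend removed. Directions turned for these uncalled members: Lss (0.0053 with upper-quartile factors, 0.027 with totals), Dhcr7 (0.023 and 0.043), Acaca (0.159 and 0.182, 0.063 with the strict filter, and -0.138 to 0.076 with 1 replicate left out, above 0 without ICI replicate 1 or isotype replicate 2), Msmo1 (-0.025 to 0.057 with 1 replicate left out, below 0 without isotype replicate 1, and -0.065 with the length trend removed) and Stard4 (-0.033 to 0.103, below 0 without isotype replicate 3, and -0.042 with replicates 1 and 2 alone). The log2 ratio of the summed sterol enzymes was 0.167 on totals, -0.171 per kb and -0.083 to 0.0093 with 1 replicate left out, above 0 without isotype replicate 2; that of the fatty acid enzymes was -0.41 on totals. The cause of these shifts was not tested, except that upper-quartile factors and totals raise the median of all genes.

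The labels describe no pairing by replicate number. Number 3 was, however, the library with the most Xist in both groups (2786 counts in ICI and 1844 in isotype). Deviations from the group means of same-numbered libraries correlated at 0.0580, 0.0999 and 0.162 across genes. Pairs with different numbers ran from -0.177 to 0.113. All of these were below 0 except ICI replicate 2 with isotype replicate 1 (0.113), the best match of ICI replicate 2. With the number as a replicate block, 5079 genes were higher and 4912 lower (5102 and 4938 without), with 3 and 7 sterol enzymes, 3 and 2 fatty acid enzymes and 3 and 2 SREBP control genes. Depth limits Tm7sf2, Fads2, Elovl6 and, in isotype, Scd1, with 4 to 12 counts per library.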
